A study of Mus musculus with 12 samples.

Results

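The genes described here encode 10 proteins of the lipid droplet, Plin2, Plin4, Plin5, Cidea, Cideb, Cidec, Fitm2, G0s2, Pnpla2 and Pnpla3, and their mRNA was measured by bulk RNA sequencing in mouse liver. They were taken by name from the tables of read counts. All 10 were listed in the chow table, among 20775 genes, and in the HFCF table, among 22709 genes, and 20093 genes were in both.

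A lipid droplet is a store of triglyceride and steryl ester inside a single phospholipid layer, and hepatocytes fill with droplets in fatty liver. The perilipins (Plin2, Plin4, Plin5) coat the droplet and limit the access of lipases. The CIDE proteins (Cidea, Cideb, Cidec) sit where droplets touch and let lipid pass into the larger one. Cideb is the CIDE gene of normal hepatocytes and also serves the lipidation of very-low-density lipoprotein, whereas Cidea and Cidec are best known from adipose tissue. FITM2 is a membrane protein of the endoplasmic reticulum that droplet formation requires. Pnpla2 encodes adipose triglyceride lipase, the enzyme of the opening step of triglyceride hydrolysis, and G0s2 encodes its inhibitor. Pnpla3 encodes a related protein of the droplet surface, known from the human genetics of fatty liver. Many of these genes are targets of the nuclear receptors PPARα and PPARγ.

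The study compared livers of male C57BL/6N mice with and without HuR, the RNA-binding protein encoded by Elavl1, in 4 groups of 3 mice. According to the labels, every mouse carried a floxed Elavl1 allele (HuR flox/flox), was 4 to 6 months old and was injected with an adeno-associated virus. HuRHep-/- mice received AAV8-Tbg-Cre, which expresses Cre under a hepatocyte promoter, and the controls, called WT, received AAV8-Tbg-null. Livers were taken after normal chow or after 16 weeks on the HFCF diet, which supplies 40 kcal% fat, 2% cholesterol and 20 kcal% fructose. The methods of the study describe instead younger mice and an albumin-Cre cross, and which of these applies cannot be read from the counts. The state of feeding at collection and the time of day were not given in the sources used here.

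The libraries held from 30071731 to 35949203 counted reads, and 0 pairs of libraries held identical counts. Levels are given as CPM, the counts of a gene per 1000000 counts of its library, scaled over the 12 libraries by TMM factors. Elavl1 was not lower in the livers labelled HuRHep-/-. It ranged from 29.3 to 31 CPM in chow WT, from 38.8 to 42.8 CPM in chow HuRHep-/-, from 23.9 to 27.0 CPM in HFCF WT and from 32.2 to 34.2 CPM in HFCF HuRHep-/-. The log2 difference was 0.41 ± 0.068 (SE, adjusted p = 0.0220, limma) in chow and 0.38 ± 0.072 (adjusted p = 0.0327) in HFCF. These counts are summed over the whole gene, so exons removed by Cre cannot be seen on their own. Every direction below is therefore one between livers as labelled. HFCF WT liver 2 stood apart from the other HFCF WT livers, with the lowest level of its group in 6 of the 10 genes, and results that rest on it are given with and without it. In whole liver, fewer cells of a type and less RNA per cell cannot be told apart.

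Per kb of exon, the order of the genes was led by Cideb, Plin2 and G0s2 in every group. Exon length was that of all annotated exons joined, 3512 bases for Plin2 and 1488 for Cideb. Their longest transcripts have 1888 and 1212 bases, so the order of Cideb, Plin2 and G0s2 depends on the length chosen. The same lengths enter the family shares below. In chow WT, Cideb reached 181 ± 7.85 CPM per kb (SD, n = 3), above Plin2 at 126 ± 1.06, while Plin2 and G0s2 (122 ± 22.5) did not differ beyond their spread. Pnpla2 followed at 39.9 ± 1.49, and Plin5 (21.1 ± 3.71) and Fitm2 (18.7 ± 2.02) overlapped. Cidec at 2.46 ± 0.57 and Plin4 at 2.32 ± 1.32 were near each other. Pnpla3 (0.256 ± 0.021) and Cidea (0.108 ± 0.060) came last. HFCF WT had another order. G0s2 (256 ± 124), Cideb (203 ± 7.76) and Plin2 (186 ± 34.0) led without a difference beyond their spread. Cidec (67.3 ± 42.7), Cidea (57.6 ± 46.7) and Pnpla2 (29.4 ± 3.64) came next and did not differ beyond theirs. In HFCF WT livers 1 and 3, Cidec (95.1 and 88.6) and Cidea (97.9 and 68.3) lay above Pnpla2 (31.1 and 31.8), and in liver 2 both (18.1 and 6.49) lay below it (25.2).

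**Figure D1:**
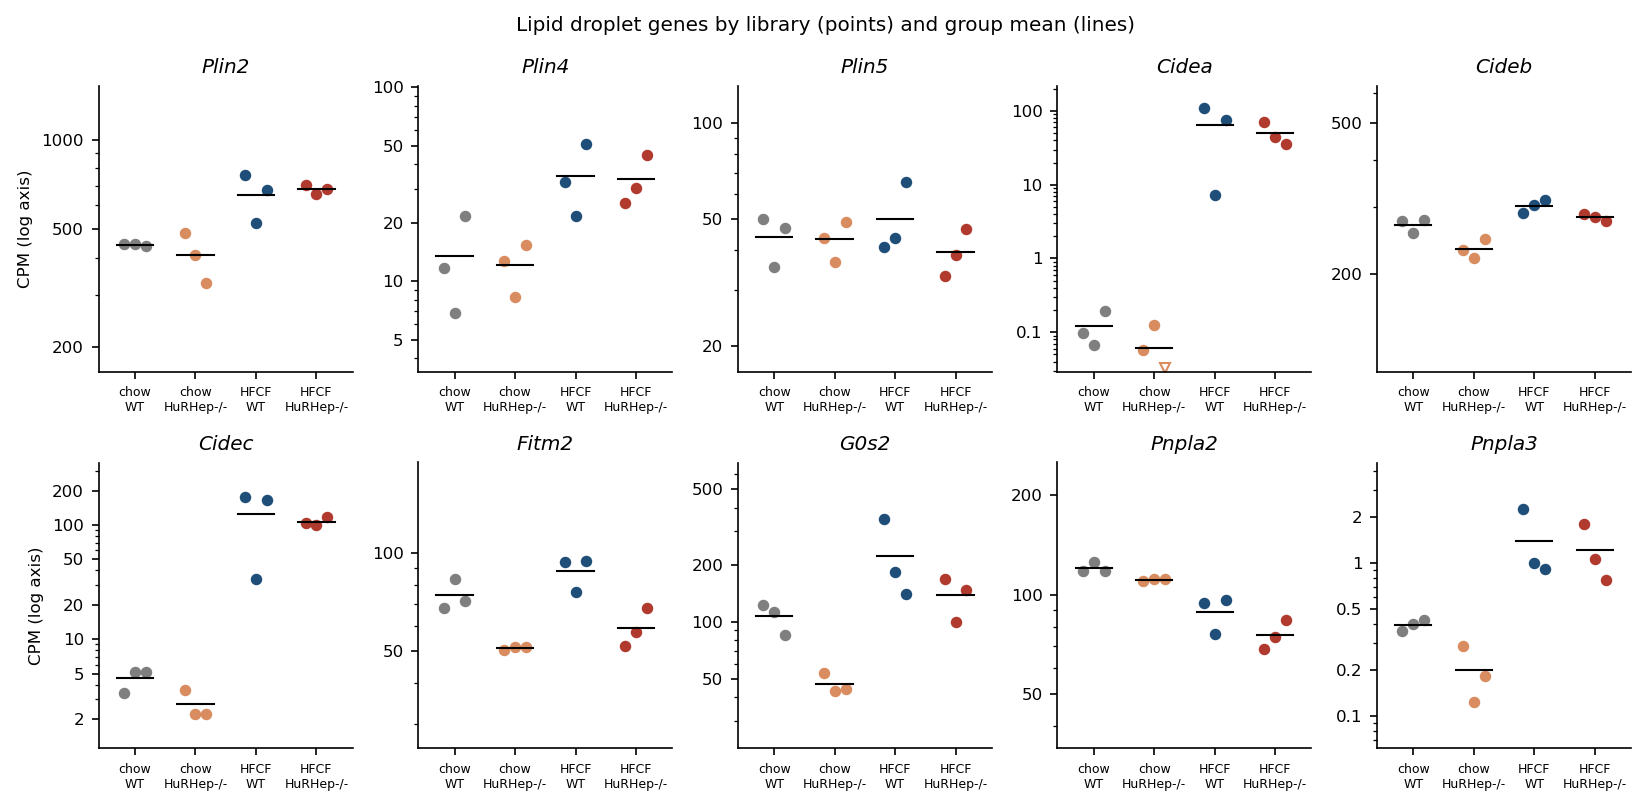
CPM (log axis) of each gene in 12 livers, 3 in each group; points are livers, horizontal lines are group means, and the open triangle is a liver with 0 Cidea reads, drawn at the lower edge. Cidea and Cidec lie far higher in every HFCF liver than in any chow liver, and HFCF WT liver 2 is the lowest HFCF liver for both, at 7.23 and 33.6 CPM.

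The genotype was compared first in chow livers, to ask how droplet genes differ between the labels without a fat-rich diet. G0s2 fell in the livers labelled HuRHep-/-, and Fitm2 passed the p threshold with a smaller difference. The estimates of all 9 genes tested lay below 0, those of Plin4 and Plin5 only just (-0.027 and -0.017). A gene was called when its adjusted p (limma on log2 CPM, Benjamini-Hochberg over all genes tested) was at most 0.05, its fold change at least 1.5 and its counts at least 10 over each group. By that rule 1 of the 9 genes tested was called, beside 301 of all 13526 genes tested (2.23%). The median log2 difference of the 9 genes was -0.20, against 0.0049 over all genes. Cidea had too few reads in chow for a test.

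The lipolysis genes came out as follows. G0s2, the inhibitor of the lipase, was at 123, 112 and 84.7 CPM in chow WT livers 1 to 3 and at 53.2, 42.8 and 44.0 CPM in chow HuRHep-/-. The groups did not overlap, and G0s2 fell by 1.17 ± 0.15 on the log2 scale (SE, adjusted p = 0.0109, limma), a level 2.25-fold lower. The call was lost without chow HuRHep-/- liver 2 (log2 difference -1.11, adjusted p = 0.0646), a fit in which 8 genes in all were called. Pnpla2, the lipase itself, was at 118, 126 and 118 CPM in chow WT and at 110, 111 and 112 CPM in chow HuRHep-/-. Its groups did not overlap either, but the log2 difference was only -0.11 (95% confidence interval -0.24 to 0.023, adjusted p = 0.289). Pnpla3 was close to the limit of detection, with 11, 12 and 13 reads in chow WT and 10, 4 and 6 reads in chow HuRHep-/-. Its log2 difference of -1.01 ± 0.42 was not called (adjusted p = 0.201).

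Fitm2, the droplet formation gene, had a smaller difference than G0s2. It was at 68.1, 83.2 and 71.1 CPM in chow WT and at 50.6, 51.7 and 51.8 CPM in chow HuRHep-/-, without overlap. The log2 difference was -0.52 ± 0.085 (adjusted p = 0.0220, limma), which is 1.43-fold and below the fold threshold. Leaving out each library in turn gave an adjusted p from 0.0224 to 0.105, at or under 0.05 in 3 of 6 fits.

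Among the CIDE genes, Cideb was at 276, 256 and 277 CPM in chow WT and at 231, 221 and 248 CPM in chow HuRHep-/-. The groups stood apart, with a log2 difference of -0.20 ± 0.067 that did not pass (adjusted p = 0.127). Cidec was at 3.36, 5.15 and 5.20 CPM in chow WT and at 3.62, 2.23 and 2.22 CPM in chow HuRHep-/-. These groups overlapped, and the log2 difference of -0.77 ± 0.25 did not pass (adjusted p = 0.130). Cidea had 3, 2 and 6 reads in chow WT and 2, 4 and 0 reads in chow HuRHep-/-, so a difference was not detectable at this depth.

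None of the perilipins was called in chow, with log2 differences from -0.13 to -0.017. Plin2 was even among the WT livers (445, 443 and 438 CPM) and spread in HuRHep-/- (483, 409 and 330 CPM), with a log2 difference of -0.13 (95% confidence interval -0.43 to 0.17). Plin4 ranged from 6.82 to 21.8 CPM in chow WT and from 8.27 to 15.4 CPM in chow HuRHep-/-, so its interval was wide (-0.95 to 0.90). Plin5, the perilipin that ties droplets to mitochondria, ranged from 35.3 to 50 CPM and from 36.9 to 49.1 CPM (interval -0.36 to 0.32). In each case the groups overlapped.

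The same comparison in HFCF livers asked whether the genes differ between the labels once droplets have been loaded by diet. Fitm2 was the 1 gene of 10 called, beside 517 of 14295 genes (3.62%), and 7 of the 10 estimates lay below 0. The median log2 difference of the 10 genes was -0.15, against -0.0017 over all genes. Fitm2 was at 94.1, 75.7 and 94.4 CPM in HFCF WT and at 51.9, 57.4 and 68.1 CPM in HFCF HuRHep-/-. The groups did not overlap, and Fitm2 fell by 0.59 ± 0.13 on the log2 scale (adjusted p = 0.0413, limma), which is 1.51-fold and at the edge of the fold threshold. Leaving out any 1 of the 6 livers other than HFCF WT liver 2 ended the call, with log2 differences from -0.51 to -0.70 and adjusted p from 0.0639 to 0.140. A fit on all 12 libraries ended it too, on the fold (log2 difference -0.58, adjusted p = 0.0105).

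G0s2 spread widely in HFCF livers. It was at 346, 183 and 141 CPM in HFCF WT and at 168, 99.9 and 147 CPM in HFCF HuRHep-/-. The groups overlapped, and the log2 difference of -0.63 ± 0.34 did not pass (adjusted p = 0.251). Leaving out each library moved it from -0.91 (without HFCF WT liver 3) to -0.25 (without HFCF WT liver 1). Pnpla2 was at 94.1, 76.1 and 96.0 CPM in HFCF WT and at 68.4, 74.6 and 83.5 CPM in HFCF HuRHep-/- (log2 difference -0.25, adjusted p = 0.196). Cideb was at 290, 304 and 313 CPM in HFCF WT and at 288, 282 and 275 CPM in HFCF HuRHep-/-. The Cideb groups just stood apart, with a log2 difference of -0.12 and an adjusted p of 0.238.

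Cidea and Cidec depended on a single library in this comparison. Cidea was at 109, 7.23 and 76.2 CPM in HFCF WT and at 71.1, 44.4 and 35.2 CPM in HFCF HuRHep-/-. Cidec was at 177, 33.6 and 164 CPM in HFCF WT and at 105, 99.7 and 117 CPM in HFCF HuRHep-/-. With every liver the log2 differences were 0.28 ± 0.94 for Cidea and 0.091 ± 0.58 for Cidec, which says little about either direction. Without HFCF WT liver 2 they turned to -0.94 (adjusted p = 0.114) and -0.69 (adjusted p = 0.0189), so that Cidec joined Fitm2 and 2 genes were called. The remaining genes, Plin2, Plin4, Plin5 and Pnpla3, had overlapping groups, log2 differences between -0.34 and 0.066 and adjusted p of 0.281 or more.

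With both diets in 1 fit, the genotype difference averaged over diets called 1 of 10 genes, beside 800 of 14535 genes (5.50%). All 10 estimates lay below 0, with a median of -0.25 against 0.014 over all genes. G0s2 fell by 0.90 ± 0.20 on the log2 scale (adjusted p = 0.0109), a level 1.86-fold lower. Fitm2 had the smallest p of the 10 genes, with a log2 difference of -0.55 ± 0.080 (adjusted p = 0.00108, 1.46-fold), and passed the p threshold but not the fold. Cideb also passed on p, with a log2 difference of -0.16 ± 0.044 (adjusted p = 0.0301, at most 0.05 in 8 of 12 fits that leave out 1 library), while Pnpla2 (-0.17, adjusted p = 0.0840) did not. Without HFCF WT liver 2, Cidec (-0.72, adjusted p = 0.0100) and Fitm2 (-0.60, adjusted p = 0.000629) were called as well, making 3. Leaving out HFCF HuRHep-/- liver 3 added Fitm2, making 2.

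**Figure D2:**
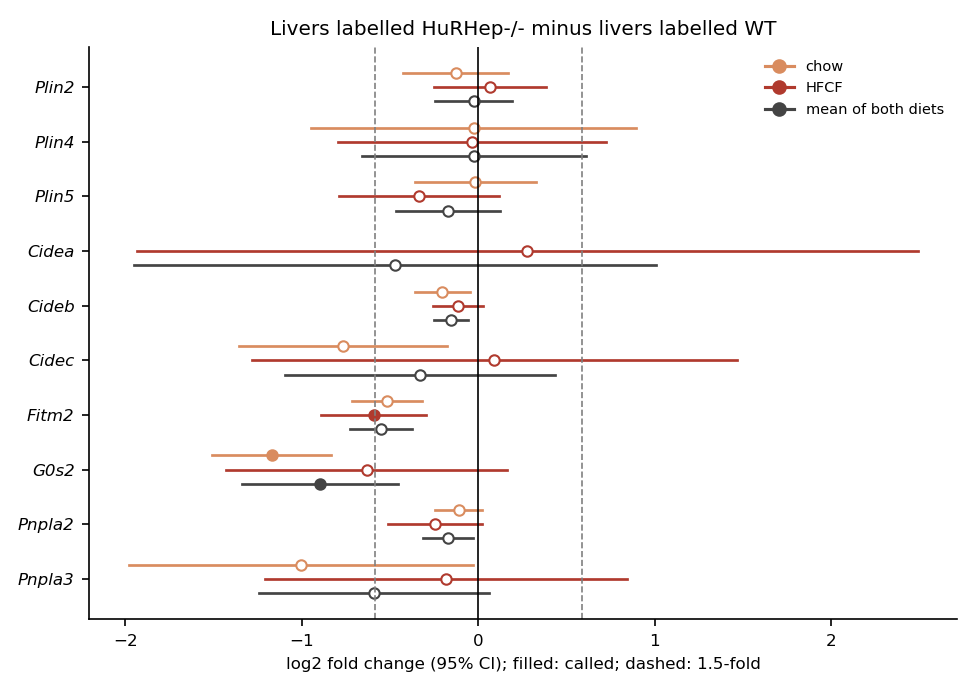
Log2 difference between livers labelled HuRHep-/- and WT, with 95% confidence intervals, in chow, in HFCF and averaged over both; filled points were called, and dashed lines mark a 1.5-fold change. G0s2 is filled in chow and in the mean, Fitm2 in HFCF, and Cidea was not tested in chow.

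Whether the genotype difference itself changed with diet was tested as an interaction. limma called 0 of the 10 genes and 0 of 14535 genes (0.00%), and 0 of the 10 and 2088 of all genes had an unadjusted p under 0.05. With voom weights, 0 of the 10 and 1 gene in all were called. Among the 10, Pnpla3 had the smallest adjusted p in limma (0.540). For G0s2 the interaction was 0.56 on the log2 scale with an interval from -0.32 to 1.44, and for Fitm2 it was -0.053, from -0.40 to 0.30. The call of G0s2 in chow alone and of Fitm2 in HFCF alone is thus not shown to differ between diets.

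Because G0s2 inhibits the enzyme encoded by Pnpla2, the ratio of their counts was taken within each library, where scaling cancels. The ratio uses the same reads as the G0s2 and Pnpla2 comparisons above, so it is not separate evidence. It was 1.04, 0.888 and 0.719 in chow WT and 0.483, 0.385 and 0.394 in chow HuRHep-/-. In HFCF WT it was 3.68, 2.40 and 1.46, and in HFCF HuRHep-/- it was 2.46, 1.34 and 1.75. The chow groups stood apart and the HFCF groups overlapped. Averaged within diets, the log2 ratio was lower by 0.72 in the livers labelled HuRHep-/- (difference -0.72, exact permutation test within diets, two-sided, p = 0.03, where 0.005 is the smallest p possible). Leaving out each library in turn gave differences from -0.89 to -0.56 with p from 0.015 to 0.075. The differences were -1.06 in chow (exact permutation p = 0.1, the smallest possible with 3 against 3) and -0.39 in HFCF (exact permutation p = 0.5). Between diets, the mean log2 ratio was higher in HFCF by 1.43 in WT and by 2.10 in HuRHep-/-, each without overlap (exact permutation p = 0.1 each, the smallest possible).

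**Figure D3:**
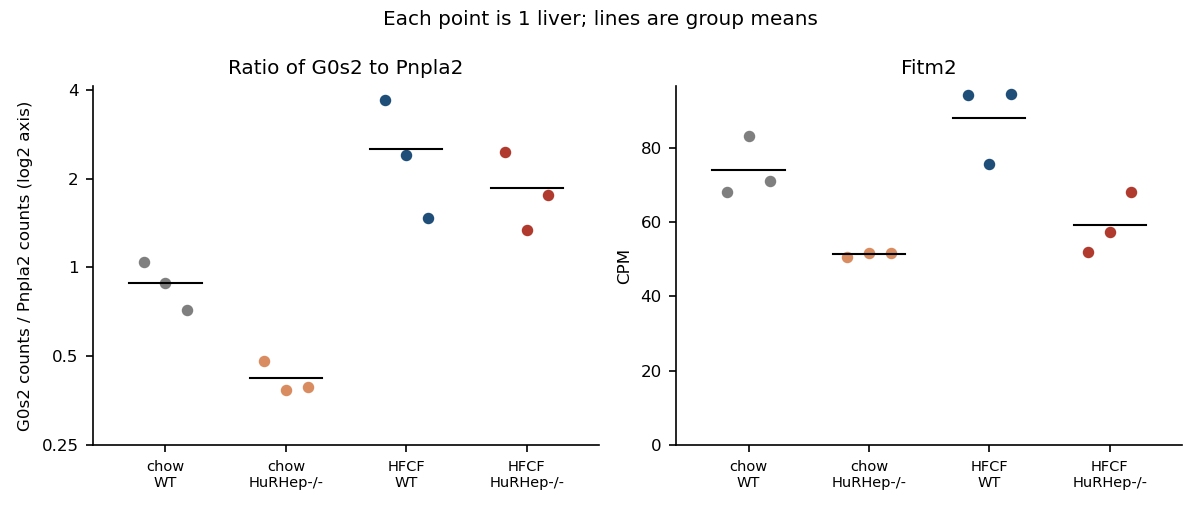
Left, G0s2 counts divided by Pnpla2 counts in each liver (log2 axis); right, Fitm2 CPM in each liver; points are livers and horizontal lines are group means, 3 livers in a group. The ratio lies between 0.385 and 0.483 in chow HuRHep-/- and between 0.719 and 1.04 in chow WT, and Fitm2 is lower in every HuRHep-/- liver than in any WT liver of the same diet.

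HuR is known to bind U-rich and AU-rich elements in the 3′ untranslated regions of mRNAs, whose core is often ATTTA in DNA letters. This pentamer was counted on the sense strand of the untranslated region of the GENCODE transcript with the longest coding sequence. It occurred in 2 of 9 genes with a region of at least 50 bases, against 66.1% of 12964 tested genes. A share of this kind depends on length, and 6 of the 9 regions had 121 to 468 bases where the median over all genes was 967. Plin2, Plin4, Plin5, Cidea, Cideb, G0s2 and Pnpla3 held 0 copies, and the Cidec transcript was left out because its annotated region was shorter. The region of Fitm2, at 3124 bases, held 4 copies, or 1.28 per kb against a median of 1.22 per kb over all genes. The region of Pnpla2, at 1075 bases, held 1 copy, which lies inside the longer TTATTTATT that 7.05% of genes contain. The Fitm2 and Pnpla2 sites are shown because these are the members with a match and Fitm2 lies lower in both diets. Each line gives 25 bases of the sense strand (GRCm38) with ATTTA in capitals. The sites are on the minus strand at chr2:163467586-163467610, chr2:163467390-163467414, chr2:163467334-163467358 and chr2:163466630-163466654 for Fitm2, and on the plus strand at chr7:141460036-141460060 for Pnpla2.
Fitm2 site 1: ttctagtttaATTTAatcttttgag
Fitm2 site 2: ataataatctATTTAaaatatgtat
Fitm2 site 3: accaattactATTTAagatgtaaga
Fitm2 site 4: tcctgacagtATTTAgagcattctg
Pnpla2 site 1: gtgaagaattATTTAtttttgccaa
G0s2, with the largest called genotype difference of the 10 genes, held no ATTTA in its 302 bases. A match to these letters is a description and not a binding site.

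The diet comparison asked how the droplet genes change between chow and 16 weeks of HFCF within each label. In WT, Cidea, Cidec, Pnpla3, Plin4 and G0s2 rose, 5 of 10 genes, where 965 of 14535 genes rose (6.64%). Over all genes 1442 were called in either direction (9.92%). In HuRHep-/-, the same 5 and Plin2 rose, 6 of 10 genes, where 2132 of 14535 genes rose (14.7%) and 2855 were called in either direction (19.6%). The median log2 difference of the 10 genes was 0.76 in WT and 1.12 in HuRHep-/-, against 0.0094 and 0.0020 over all genes. The diets were deposited in separate tables, so diet and table cannot be told apart. Each label had its own chow livers, so these comparisons share no sample with each other, but both share their livers with the genotype comparisons. Both came from 1 fit with a shared estimate of the spread, so their p-values are not independent.

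Cidea and Cidec had the widest range of all 10 genes. Cidea went from 11 reads in the 3 chow WT livers together to 4138, 237 and 2398 reads in HFCF WT, and from 6 reads to 2852, 1714 and 1306 reads in HuRHep-/-. Its mean level was 0.121 CPM in chow WT and 64.2 CPM in HFCF WT, 532 times as high, and 0.0606 and 50.2 CPM in HuRHep-/-, 829 times as high. The fitted log2 differences were 8.27 ± 0.96 (adjusted p = 0.000417) and 9.80 ± 0.96 (adjusted p = 9.09e-05), and they depend on the pseudocount because chow counts are so low, with 7.78 and 8.78 at a pseudocount of 2. With voom weights the Cidea estimates were nearly the same, at 8.28 and 9.80, but the calls were lost (adjusted p = 0.161 in WT and 0.140 in HuRHep-/-). Cidec rose by 4.46 ± 0.50 on the log2 scale in WT (adjusted p = 0.000293) and by 5.34 ± 0.50 in HuRHep-/- (adjusted p = 7.21e-05). Every HFCF liver lay above every chow liver for both genes, HFCF WT liver 2 included. Without that liver, the WT differences were 9.49 for Cidea and 5.24 for Cidec.

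Cideb moved little beside them. Its log2 difference was 0.16 ± 0.062 in WT (adjusted p = 0.0747) and 0.28 ± 0.062 in HuRHep-/- (adjusted p = 0.00563, below the fold threshold). The makeup of the CIDE family therefore differed between diets. Per kb, Cideb made up 98.6% ± 0.34 of the family in chow WT (SD, n = 3) and 99.0% ± 0.29 in chow HuRHep-/-, but 65.6% ± 20.8 in HFCF WT and 65.0% ± 2.86 in HFCF HuRHep-/-. Cidec accounted for 18.9% ± 9.47 in HFCF WT and 19.8% ± 2.38 in HFCF HuRHep-/-, and Cidea for 15.6% ± 11.5 and 15.2% ± 4.63. In HFCF WT liver 2, Cideb still held 89.2% of the family.

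**Figure D4:**
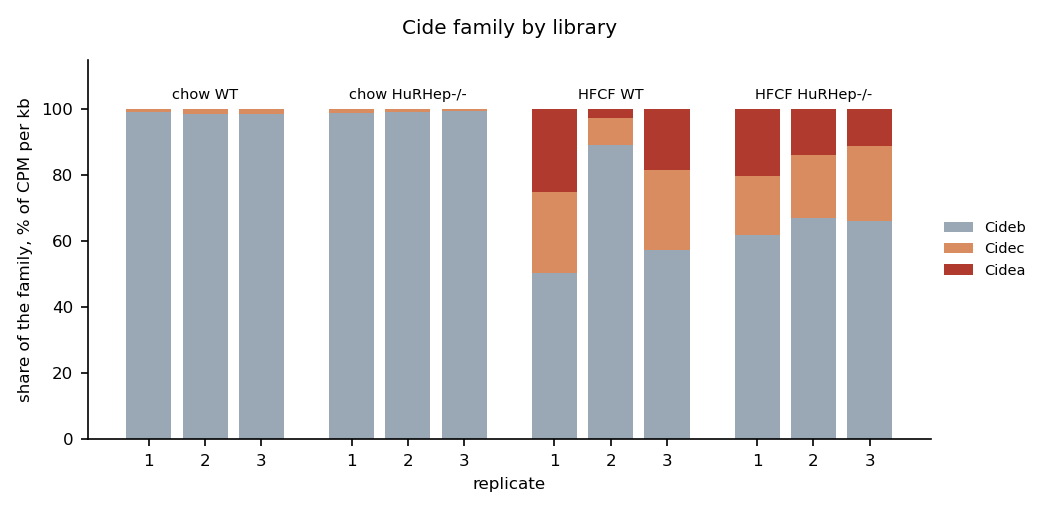
Share of Cideb, Cidec and Cidea in the summed CPM per kb of the 3 genes, in percent, for each of 12 livers. Cideb fills nearly the whole bar in chow livers, at 98.4% or more, and between 50.2% and 89.2% in HFCF WT.

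The perilipins responded unequally. Plin2, the main perilipin of hepatocytes, was at 758, 523 and 676 CPM in HFCF WT and at 706, 658 and 684 CPM in HFCF HuRHep-/-, above every chow liver. It rose by 0.76 ± 0.14 on the log2 scale in HuRHep-/- (adjusted p = 0.00203), while the difference of 0.55 ± 0.14 in WT (adjusted p = 0.0176) was below the fold threshold. Without HFCF WT liver 2 the WT difference was 0.70 (adjusted p = 0.00355) and was called. Plin4 was at 32.5, 21.7 and 50.7 CPM in HFCF WT and at 25.2, 30.4 and 44.8 CPM in HFCF HuRHep-/-. It rose by 1.45 ± 0.41 (adjusted p = 0.0253) in WT, where 1 chow liver at 21.8 CPM overlapped the HFCF group, and by 1.47 ± 0.41 (adjusted p = 0.0157) in HuRHep-/-. The WT call was lost without chow WT liver 1 or 2 or HFCF WT liver 1 or 3 (adjusted p from 0.0615 to 0.0977), and the HuRHep-/- call without chow liver 2 or HFCF liver 3 (adjusted p = 0.0609 and 0.0607). Plin5 was at 40.9, 43.7 and 65.3 CPM in HFCF WT and at 33.3, 38.7 and 46.5 CPM in HFCF HuRHep-/-, with log2 differences of 0.16 (95% confidence interval -0.26 to 0.58) and -0.13 (-0.55 to 0.28). Per kb, Plin2 made up between 71.3% and 85.4% of the family of Plin2, Plin3, Plin4 and Plin5 in every library.

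The lipase and its inhibitor had estimates of opposite sign with diet. G0s2 rose by 0.98 ± 0.29 on the log2 scale in WT (adjusted p = 0.0289) and by 1.54 ± 0.29 in HuRHep-/- (adjusted p = 0.00201), without overlap in either. The WT call was lost without chow WT liver 1 (adjusted p = 0.05003), chow WT liver 3 (0.105) or HFCF WT liver 1 (0.0826). Pnpla2 had log2 differences of -0.45 ± 0.093 in WT (adjusted p = 0.00596, 1.36-fold) and -0.56 ± 0.093 in HuRHep-/- (adjusted p = 0.00109, 1.48-fold), both past the p threshold, without overlap, and below the fold threshold. Pnpla3 had 86, 33 and 29 reads in HFCF WT and 72, 41 and 29 reads in HFCF HuRHep-/-. It rose by 1.66 ± 0.42 (adjusted p = 0.0160) and by 2.50 ± 0.42 (adjusted p = 0.00124). The WT call of Pnpla3 was lost without chow WT liver 1 (adjusted p = 0.0542) or HFCF WT liver 1 (0.0652). Fitm2 had log2 differences of 0.25 ± 0.11 (adjusted p = 0.134) and 0.19 ± 0.11 (adjusted p = 0.198).

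**Figure D5:**
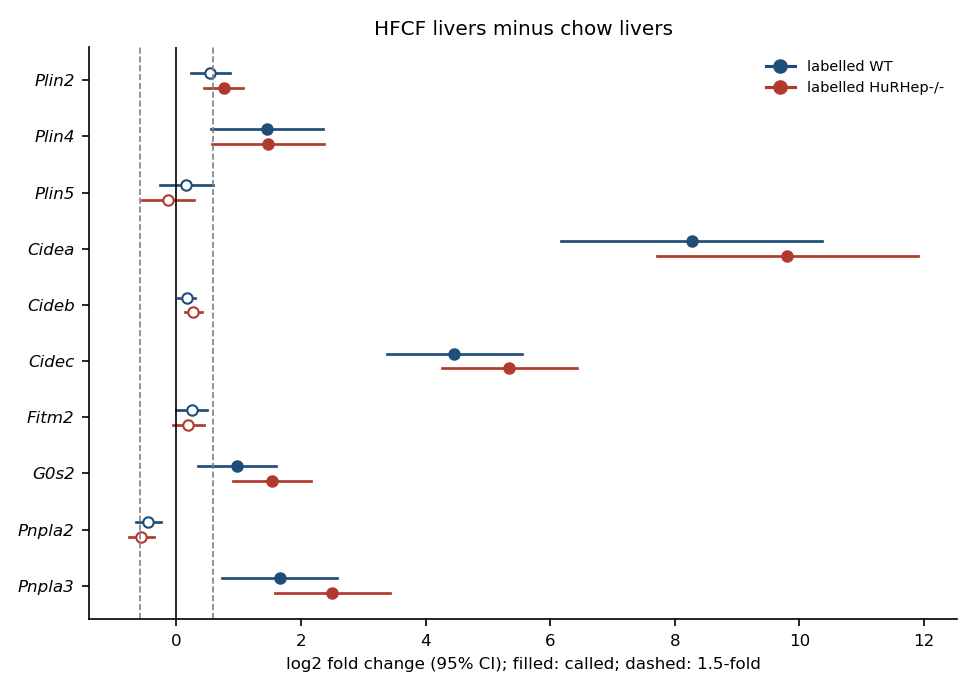
Log2 difference between HFCF and chow livers with 95% confidence intervals, in livers labelled WT and HuRHep-/-; filled points were called, and dashed lines mark a 1.5-fold change. Cidea at 8.27 and 9.80 and Cidec at 4.46 and 5.34 stand far to the right, and Pnpla2 is the gene with both points below 0 and both intervals clear of it.

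The genes around these proteins were read from lists of named genes. Over all genes tested, 6.64% rose and 3.28% fell with diet in WT, and 14.7% rose and 4.97% fell in HuRHep-/-. By genotype, 1.27% were called higher and 0.954% lower in chow, and 2.15% higher and 1.47% lower in HFCF. The counts of the lists stand beside these shares. Of 19 other lipid droplet genes tested, genotype called 0 in chow and 1 in HFCF (Tmem159, which partners seipin in droplet formation, higher by 0.84 on the log2 scale, adjusted p = 0.0470). With diet, Fitm1, a relative of Fitm2 best known from muscle, rose by 1.27 in WT and 1.67 in HuRHep-/-. Hilpda, another inhibitor of the lipase, rose by 0.82 and 1.03. Nsdhl, an enzyme of cholesterol synthesis found on droplets, fell by 1.89 and 1.81. Together 2 rose and 1 fell in WT, and 3 rose and 1 fell in HuRHep-/-, with list medians of 0.061 and -0.059.

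Among 17 genes of triglyceride and steryl ester synthesis, 4 rose with diet in WT and 4 in HuRHep-/-, where 6.64% and 14.7% of all genes rose. Among them were Mogat1, a monoacylglycerol acyltransferase (3.30 and 3.99 on the log2 scale), and Soat1, which esterifies cholesterol (0.86 and 1.12). Genotype called 0 of the 17 in chow and 1 in HFCF (Agpat9, which acylates glycerol 3-phosphate and fell by 0.76), where 0.954% and 1.47% of all genes fell. In the lipolysis list, 5 of 12 genes rose with diet in WT and 2 in HuRHep-/-, beside the same 6.64% and 14.7% of all genes. Those in WT included Mgll, which hydrolyses monoglycerides (0.99), and Lipa, the lysosomal acid lipase (0.67). Those in HuRHep-/- were Hilpda and Pnpla5. Pnpla5, a relative of Pnpla2 and Pnpla3, had the largest difference of the list in both labels (4.68, adjusted p = 0.00203, and 4.55, adjusted p = 0.00119, limma). Like Cidea, Pnpla5 had too few reads for a test in the chow livers alone. It was tested by diet only through its HFCF reads, and the size of its difference is uncertain. Aadac, a lipase of the endoplasmic reticulum, fell with genotype by 0.71 in chow (adjusted p = 0.0137, 1 of 11 genes) and by 0.78 in HFCF (adjusted p = 0.0183, 1 of 12 genes). Over all genes 0.954% and 1.47% fell by genotype.

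Of 12 transcription factor genes, 0 were called by genotype in either diet by limma. With diet, Pparg rose by 1.12 in WT and 1.10 in HuRHep-/-, and Srebf1, which drives fatty acid synthesis, rose by 1.73 and 1.66. Ppara rose by 0.59 in WT, and Ppargc1a fell by 0.91 in HuRHep-/-, so 3 rose in WT, and 2 rose and 1 fell in HuRHep-/-. Other PPAR target genes were the list with most genotype calls in chow, where 4 of 14 fell, beside 0.954% of all genes, and the list median was -0.42. They included Vnn1, a pantetheinase (-1.14, adjusted p = 0.00722), Ehhadh of peroxisomal fatty acid oxidation (-0.66, adjusted p = 0.00757) and Acot1, an acyl-CoA thioesterase (-1.39, adjusted p = 0.0283). In HFCF 2 of the 14 fell, beside 1.47% of all genes, Acot1 (-1.36) among them. With diet 5 rose in WT and 6 in HuRHep-/-, Cd36, the fatty acid transporter, by 1.96 and 2.81. In the feeding and fasting list, Scd1, a fatty acid desaturase, fell with genotype in chow by 1.59 (adjusted p = 0.0260, 1 of 11 genes), 0 were called in HFCF, and 3 and 5 rose with diet. Among 12 clock genes genotype called 0 in chow and Cry1 in HFCF (-0.78, adjusted p = 0.0407), and diet called 0 of 13 in either label by limma.

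Markers of other cell types moved with some of these results, and their part in them was not tested. Cidea and Cidec are also genes of adipocytes. The adipocyte list of 7 genes summed to between 10.8 and 13.8 CPM in chow livers, to between 65.5 and 287 CPM in HFCF WT and to between 43.9 and 66.2 CPM in HFCF HuRHep-/-. In HFCF livers most of the sum came from Cfd, the complement protease adipsin (982 to 9866 reads), and Fabp4, a fatty acid carrier (188 to 752 reads), which had 2 to 40 and 135 to 204 reads in chow livers. Adrb3, an adrenergic receptor, had 128 to 354 reads in all 12 libraries and was not called by diet (log2 differences 0.47 in WT and -0.51 in HuRHep-/-). The other 4 genes were near 0 in every library, with at most 2 reads of Adipoq, 2 of Lep, 5 of Plin1 and 4 of Retn. Ucp1, the marker of brown adipocytes, had at most 3 reads. HFCF WT liver 2, with its low Cidea and Cidec, also differed from the other HFCF WT livers in some markers of several cell types. Fabp4 had 188 reads there and 752 and 677 in the others, whereas Adrb3 was higher there (354 against 242 and 230) and Cfd, at 1598 reads, was near liver 3 (1884) and below liver 1 (9866). Col1a1 of stellate cells had 160 reads against 1155 and 1052, and Gpnmb of lipid-associated macrophages 60 against 397 and 870. Cps1 of hepatocytes was higher there, with 60615 reads against 38405 and 41898.

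The hepatocyte list of 7 genes summed to between 87154 and 107856 CPM in chow WT, between 70972 and 78691 CPM in chow HuRHep-/-, between 62055 and 67552 CPM in HFCF WT and between 58028 and 61841 CPM in HFCF HuRHep-/-. Its levels mark all 12 samples as liver. Most of the sum came from Alb (1394059 to 2434058 reads), so the sum mainly follows that gene. The genotype groups of the sum stood apart in both diets, on the same side as G0s2 in chow and Fitm2. Of the single genes, 6 had lower estimates in chow and 1 higher (Tat, 0.42). In HFCF 5 were lower and 2 higher (Ass1, 0.40, and Tat, 0.19). Genotype called 0 of the 7 in either diet by limma, and diet called 2 lower in WT and 1 in HuRHep-/-, where 3.28% and 4.97% of all genes fell. All 8 macrophage and Kupffer cell genes had higher estimates in livers labelled HuRHep-/- in both diets, with sums between 136 and 178 CPM in chow WT, between 184 and 257 CPM in chow HuRHep-/-, between 208 and 329 CPM in HFCF WT and between 328 and 440 CPM in HFCF HuRHep-/-. The 4 genes of lipid-associated macrophages summed to between 44.6 and 134 CPM in HFCF WT and between 166 and 288 CPM in HFCF HuRHep-/-, with 1 of 4 called higher by genotype in HFCF (Cd9, 1.06, adjusted p = 0.0479), 2 of 4 rising with diet in WT and 4 of 4 in HuRHep-/-. Cholangiocyte genes summed to between 7.81 and 11.6 CPM in HFCF WT and between 17.2 and 26.2 CPM in HFCF HuRHep-/-, with 2 of 4 called higher by genotype in HFCF, beside 2.15% of all genes, and 4 of 4 by diet in HuRHep-/-. Stellate cell genes rose with diet in 2 of 6 cases in WT and 6 of 6 in HuRHep-/-, endothelial genes in 0 and 1 of 4, and T and B cell genes in 0 and 2 of 4, where 6.64% and 14.7% of all genes rose. The stellate, endothelial and lymphocyte lists held 0 genotype calls in either diet by limma. Averaged over diets, genotype called 3 of 4 lipid-associated macrophage genes, 1 of 8 macrophage and Kupffer cell genes and 1 of 4 cholangiocyte genes higher. In the adipocyte list 1 of 3 genes tested was called lower. Over all genes 3.59% were higher and 1.91% lower.

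The genes whose pattern over the 12 libraries was most like that of a member were found by the root-mean-square difference of centred log2 CPM. For Cidea the nearest was Cfd, at a difference of 1.44 against 4.68 for the variation of Cidea itself. For Cidec it was B430212C06Rik, at 0.37 against 2.54. B430212C06Rik lies opposite Cidea on the other strand, sharing 0 exonic bases with it, and went from 3 to 6 reads in chow livers to between 66 and 303 reads in HFCF livers. G0s2 was nearest to Epha2 (0.358) and Vnn1 (0.363), against 0.86. Cideb was nearest to Esd (0.054), Pnpla2 to Rnf217 (0.095), Plin2 to H3f3b (0.12), Plin4 to Rufy4 (0.27), Plin5 to Snhg3 (0.14) and Pnpla3 to Clstn3 (0.43). None of the nearest genes was itself one of the 10.

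The place of the genes in the genome (GRCm38, GENCODE) bears on how reads were shared. Plin4 (chr17:56100591-56109803) and Plin5 (chr17:56111601-56117596) are neighbours on the minus strand. G0s2 (chr1:193272161-193273217, minus strand) and Cidec (chr6:113424634-113435760, minus strand) share no exonic base with another gene. Cideb (chr14:55754050-55758458, minus strand) overlaps Nop9 of the opposite strand over 76.3% of its exonic bases, so its counts rest on the strand setting of the authors' alignment. Of the words of 31 bases in the longest Plin2 transcript (chr4:86648386-86670060, minus strand), 8.45% occur in transcripts of other genes, mainly Gm12551. For Pnpla3 (chr15:84167837-84187236, plus strand) 5.92% occur elsewhere, mainly in Gm49513, and for Fitm2 (chr2:163466379-163472629, minus strand) 1.19%. The counts of Plin2 and Pnpla3 are uncertain to that extent.

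PPARα and PPARγ bind DNA as partners of RXR at direct repeats of AGGTCA with 1 base between (DR1). Promoters from RefSeq (GRCm38.p6), 250 bases before to 50 after the gene start, were searched on both strands with at most 2 mismatches in 12 bases. A match occurred in 1 of 9 genes with a promoter in the table, against 4.40% of 27025 genes. It lies in Plin2 on the strand opposite to the gene, beginning 225 bases before the gene start, at chr4:86670272-86670284. It is shown because Plin2 rose with diet in HuRHep-/-, with capitals for bases that match the repeat.
Plin2: AGGTCAggGGTCc
No match in the other 8 windows says only that these letters are absent there.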

How the data were processed

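Total RNA of 12 livers was sequenced with a stranded kit. With CLC Genomics Workbench the authors mapped reads to GRCm38.p6, reverse strand. They deposited whole-number read counts per gene, without normalization, in 1 table per diet, written as text with commas between groups of digits. For that reason a count model was not used. Counts were turned into log2 CPM (pseudocount 0.5, TMM factors with trims of 0.3 and 0.05) and tested in R 4.3.3 with limma 3.58.1 (variance trend, Benjamini-Hochberg over all genes tested). A gene was tested if 3 or more libraries reached the CPM that 10 counts make in a library of median size, and its total was 15 counts or more. Calls needed an adjusted p of at most 0.05 and a fold change of at least 1.5, with 10 counts over each group in the 6-library fits. Ratios were tested by exact permutation with Python 3.11.15 and numpy 2.4.6. With 3 mice per group, p-values measure the spread between these samples.

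The members and the gene lists were chosen with earlier results of these data known. Named were all 10 members, Elavl1, at most 3 called genes per list, direction and comparison with the smallest p, and the genes nearest to each member. Lists are described by counts, without a set test. Scripts were tested on simulated data. Positions and 3′ untranslated regions came from GENCODE vM21, promoters from RefSeq. Protein sequences were not used here. 1 gene that the rule would name is not reported here.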

Additional observations from a re-analysis of the deposited data

How the results depend on the processing

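Alternatives tried were upper-quartile and RLE factors, no filter, at least 10 counts in every library, voom weights, a pseudocount of 2, a replicate block, no fold threshold, a fit on 12 libraries, no count minimum and leaving out each library. Without the fold threshold, genotype called 2 of the 10 genes in chow and 3 averaged over diets. In HFCF, upper-quartile factors, at least 10 counts in every library and the 12-library fit each called 0 in place of 1 (Fitm2 log2 differences -0.54, -0.58 and -0.58). At least 10 counts in every library removed Cidea and Pnpla3 and left 3 genes called by diet in WT and 4 in HuRHep-/-. Leaving out each library gave 0 to 1 called genes by genotype in chow, 0 to 2 in HFCF, 1 to 3 averaged over diets, 2 to 6 by diet in WT, 5 to 6 by diet in HuRHep-/- and 0 by genotype and diet together. The count of 2 by diet in WT came without chow WT liver 1 or HFCF WT liver 1. Over all genes, calls ran from 8 to 330 in chow and from 29 to 865 in HFCF. The genotype difference in the log2 ratio of G0s2 to Pnpla2 ran from -0.89 to -0.56.

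Of 1095 values of single genes, 1030 kept their direction and their side of the threshold, 22 lost a call, 13 gained one and 30 changed sign, 28 of these without 1 library, and 0 of the 30 belonged to a called result. The values below changed sign, each followed by the range over all fits that leave out 1 library. By genotype in chow these were Plin2 (0.011, range -0.27 to 0.011), Plin4 (0.40 and 0.22, range -0.43 to 0.40) and Plin5 (0.079, 0.034 and 0.092, range -0.17 to 0.092). In HFCF they were Plin2 (-0.089, range -0.089 to 0.19), Plin4 (0.016 with upper-quartile factors, 0.28, 0.15 and 0.010, range -0.34 to 0.28), Cidea (-0.94 and -0.0058, range -0.94 to 1.03), Cidec (-0.69, range -0.69 to 0.52) and Pnpla3 (0.24 and 0.088, range -0.51 to 0.24). Averaged over diets they were Plin2 (0.044 and 0.030, range -0.11 to 0.044) and Plin4 (0.19, 0.099, 0.13 and 0.055, range -0.23 to 0.19), and by diet in WT Plin5 (-0.046, range -0.046 to 0.29). In the interaction they were Fitm2 (0.0038 and 0.035, range -0.16 to 0.035) and Plin4 (-0.0017 without a filter, -0.42, -0.24, -0.29 and -0.22, range -0.42 to 0.42). The cause was not tested.

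Same-numbered livers did not deviate together in every pair (correlations of -0.030, 0.11 and -0.0033 in chow and 0.088, 0.19 and 0.087 in HFCF). In HFCF each liver correlated best with its own number. The labels give only a number, and whether same-numbered HFCF livers share anything more was not tested. With a replicate block the counts of called members were 1, 1, 1, 5, 6 and 0, as without it, calls over all genes went from 301 to 226 in chow and from 517 to 764 in HFCF, and the ratio of G0s2 to Pnpla2 kept its log2 difference of -0.72 with an exact permutation p of 0.0625. With 3 livers a group and at most 13 reads of Pnpla3 and 6 of Cidea per chow liver, genotype differences of these genes in chow were limited by depth.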
